A study of Mus musculus with 9 samples.

Results

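The genes described here are 36 mouse genes that serve transport into, along and out of the primary cilium, together with regulators of the hedgehog pathway that act in or at the cilium. They were chosen by gene symbol from the 54532 genes of the deposited count table, with earlier results of these data known. They fall into 6 roles: 7 genes of the IFT-A complex and its carriers, 11 of the IFT-B complex, 5 ciliary motor genes, 6 of the BBSome, 2 ciliary ARL GTPases and 5 ciliary hedgehog regulators. Each symbol matched 1 row of the table, and all 36 were among the 16772 genes that passed the filter on low counts.

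The data were 9 bulk RNA-seq libraries of poly(A) RNA from sorted cells of mouse neural tube organoids, with 3 groups and 3 biological replicates in each, whose numbers name the libraries below. The organoids grew clonally in Matrigel, in N2B27 medium, from R1 embryonic stem cells of FoxA2-Venus genotype, a reporter line in which Venus fluorescence follows FoxA2, a transcription factor of the floor plate. The SAG GFP+ group came from organoids in medium with SAG, a compound known to activate Smoothened, and the RA GFP+ and RA GFP- groups from organoids in medium with all-trans retinoic acid (RA). Medium was changed at day 2, and cells were sorted on high or low fluorescence through a GFP filter set 66 hours after day 2. The sources give the RA dose as 250, once in nM and once in µM, and do not give a SAG dose. All groups share 1 cell line, genotype, medium and harvest time. No SAG GFP- group and no group without RA or SAG is among the 9 samples analysed here, so SAG GFP+ and RA GFP- cells differ in both agent and sort gate.

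The primary cilium is a single, non-motile projection that most vertebrate cells build when they are not dividing. Intraflagellar transport carries cargo along it: kinesin-II moves trains containing IFT-B toward the tip, cytoplasmic dynein 2 moves trains back with the help of IFT-A, and the BBSome is an adaptor for membrane proteins that leave the cilium. Vertebrate hedgehog signalling runs through this organelle, where Smoothened accumulates after ligand binding, and in the neural tube loss of transport genes is known to disturb ventral patterning, of which the floor plate is the most ventral cell type.

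Total counts per library ran from 25281871 to 29763765. Foxa2, the gene behind the sort, stood at 326, 212 and 205 CPM (counts scaled to a library total of 1e+06) in SAG GFP+ libraries and at 184, 157 and 133 CPM in RA GFP+ libraries, against 2.47, 1.33 and 2.51 CPM in RA GFP- libraries. Ptch1, a hedgehog receptor and transcriptional target of the pathway, averaged 1892 ± 136 CPM in SAG GFP+, 1293 ± 247 CPM in RA GFP+ and 310.4 ± 32.3 CPM in RA GFP- cells (SD, n = 3 each). The groups differed in cell type markers as well. Summed CPM of 7 floor plate markers, Foxa2 among them, was 1064 to 1321 in SAG GFP+, 729 to 1024 in RA GFP+ and 156 to 207 in RA GFP- libraries. All 7 were called higher in RA GFP+ versus RA GFP-, and 6 in SAG GFP+ versus RA GFP-. In SAG GFP+ versus RA GFP+, 2 floor plate markers were called higher and 3 lower. Summed CPM of 6 neural progenitor markers was 1007 to 1076 in SAG GFP+, 337 to 514 in RA GFP+ and 1027 to 1151 in RA GFP- libraries. For 6 neuron markers it was 346 to 566, 75.7 to 86.6 and 285 to 408 CPM in that order of groups, and for 6 pluripotency markers 56.9 to 204, 35.5 to 46.7 and 567 to 885 CPM. For 6 endoderm markers it was 3.26 to 8.02, 47.4 to 70.1 and 4.11 to 5.58 CPM, with Afp at 0 counts in every SAG GFP+ and RA GFP- library, and for 6 mesenchyme markers 19.6 to 35.4, 45.8 to 49.8 and 9.99 to 13.3 CPM. Summed CPM of 8 proliferation markers was 3460 to 4117 in SAG GFP+, 2748 to 3463 in RA GFP+ and 2844 to 3316 in RA GFP- libraries. In RA GFP+ versus RA GFP- cells, 6 of 6 progenitor, 6 of 6 neuron and 5 of 6 pluripotency markers were called lower, and 4 of 4 tested endoderm and 5 of 6 mesenchyme markers higher. Afp passed the filter through the RA GFP+ libraries alone, so its direction in both comparisons with RA GFP+ was fixed beforehand. The endoderm markers Cer1 and Ttr did not pass. In SAG GFP+ versus RA GFP+ cells, 5 of 6 progenitor markers were called higher and 1 lower, 5 of 6 neuron markers higher, and 3 of 4 endoderm and 3 of 6 mesenchyme markers lower, with pluripotency markers divided into 2 higher and 4 lower. Between SAG GFP+ and RA GFP- cells, all 6 pluripotency markers were called lower and 5 mesenchyme markers higher in SAG GFP+. The part of these differences in the results on cilium genes was not tested. In sorted bulk RNA, fewer cells of a type and less RNA per cell cannot be told apart.

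All 36 genes were expressed in all 3 groups, at 7.08 to 165 CPM in any library and with 2093 to 26164 counts per gene over the 9 libraries. Compared per kb of exon, so that genes of different length can be set side by side, the mean level ranged from 2.77 CPM per kb for Bbs9 to 27.9 CPM per kb for Ift74, with a median of 7.69. The BBSome genes were the lowest of the larger roles, with a median of 3.14 CPM per kb and a range of 2.77 for Bbs9 to 7.35 for Bbs2. The IFT-B genes had a median of 9.42, from 4.12 for Ift80 to 27.9 for Ift74, and the IFT-A genes a median of 7.43, from 2.92 for Wdr19 to 14.4 for Ift43. Among the motors, Kifap3 stood at 24.0 and Dync2h1 at 4.12 CPM per kb. Sufu, at 14.2 CPM per kb, was the highest of the 5 hedgehog regulators, of which Evc, at 3.87, was the lowest.

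**Figure D1:**
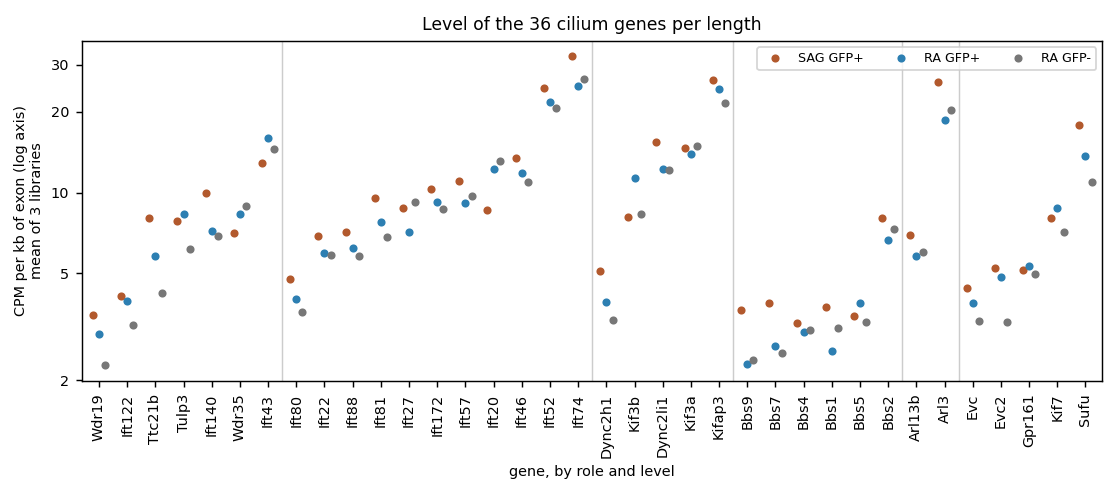
Mean level of each of the 36 genes in CPM per kb of exon (log axis), in SAG GFP+, RA GFP+ and RA GFP- cells, with genes grouped by role and ordered by level within a role; points are means of 3 libraries. Genes spread from 2.77 CPM per kb for Bbs9 to 27.9 for Ift74 (mean of 9 libraries), a wider span than that between the 3 points of any gene.

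Between groups the changes were small. The ratio of the highest to the lowest of the 9 libraries was 1.25 to 2.63 per gene, with a median of 1.65, and stayed under 2-fold for 29 of the 36 genes. No member differed between any pair of groups by more than 1 on the log2 scale. Of all 16772 genes, 2836 (16.9%) did so in RA GFP+ versus RA GFP-, 3672 (21.9%) in SAG GFP+ versus RA GFP+ and 3618 (21.6%) in SAG GFP+ versus RA GFP-. Of the 127 further cilium and hedgehog genes described below, 12.6%, 13.4% and 15% did so. The members were not alone in this, since 0 of 19 transition zone and 0 of 19 basal body genes did so in any comparison. Of 20 further IFT, motor and BBSome genes, 1, 0 and 0 did. The 95% interval of the log2 fold change lay wholly within 1 of 0 for 36, 35 and 30 members in these 3 comparisons. The standard errors of the members' log2 fold changes were 0.11 to 0.25. In RA GFP+ versus RA GFP- their median was 0.155, against 0.224 over all genes, so the shares of all genes include genes measured less precisely. The summed level of the 36 genes was 1700, 1804 and 1759 CPM in SAG GFP+, 1501, 1540 and 1581 CPM in RA GFP+ and 1309, 1432 and 1490 CPM in RA GFP- libraries, 3 ranges that do not overlap. The 2 RA ranges nearly met, at 1490 and 1501 CPM. Genes with high CPM weigh most in such a sum, and it was not tested.

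**Figure D2:**
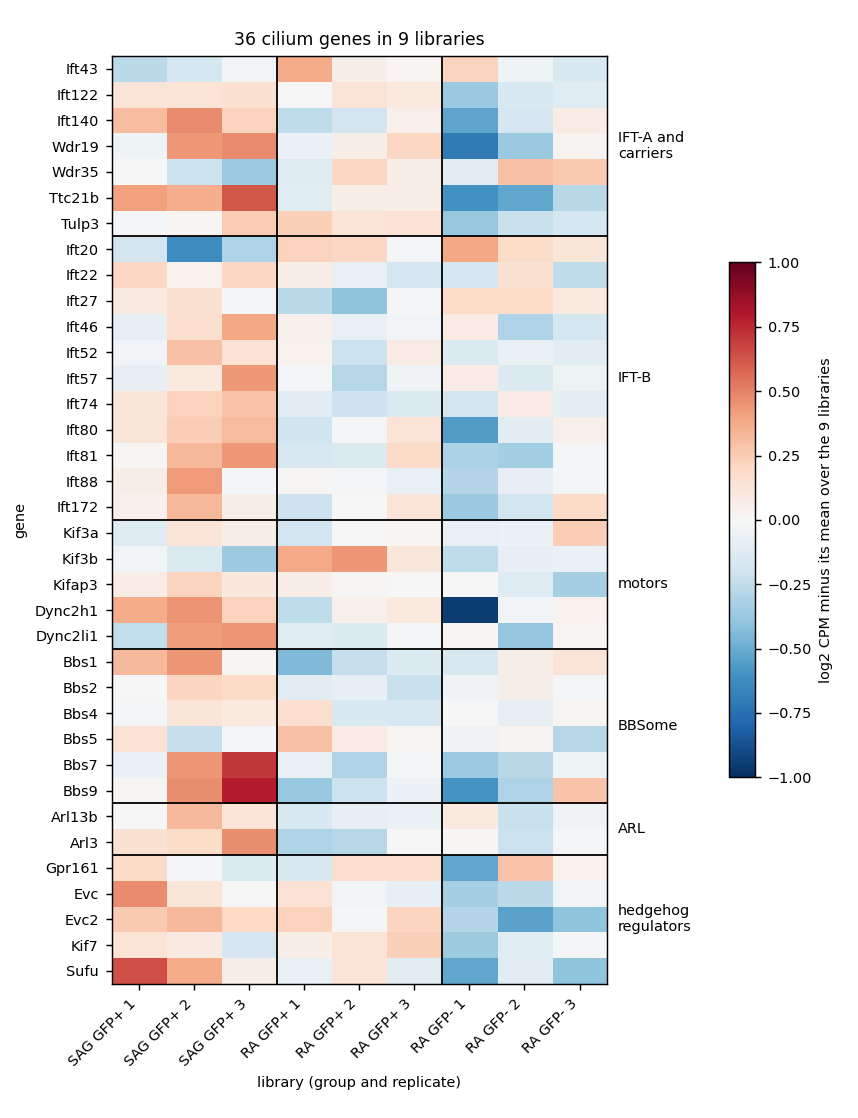
Level of each of the 36 genes (rows, by role) in each of the 9 libraries (columns, by group and replicate), as log2 CPM minus the gene's mean over the 9 libraries. Ttc21b is high in all 3 SAG GFP+ and low in all 3 RA GFP- libraries, and 15 genes have their lowest value in RA GFP- library 1.

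Exon length moved with the groups. The CPM of long genes relative to short ones differed between libraries: the rank correlation (Spearman's rho) of a gene's deviation from its mean with its exon length, over 14258 protein-coding genes, was 0.16, 0.228 and 0.208 in SAG GFP+ libraries 1 to 3. It was -0.144, 0.0704 and 0.0561 in RA GFP+ and -0.434, -0.123 and -0.0304 in RA GFP-. For the 36 members, whose median exon length of 5736 bases compares with 4457 for all protein-coding genes, the values were 0.433, 0.359 and 0.182 in SAG GFP+, -0.25, 0.25 and 0.319 in RA GFP+ and -0.784, -0.288 and 0.13 in RA GFP-. These values describe the libraries and carry no test, since genes of 1 library share its RNA and depth. RA GFP- library 1 stood furthest out and held the lowest value of 15 of the 36 genes, SAG GFP+ libraries 2 and 3 the highest value of 10 and 13. A fit that removes a smooth trend with exon length from each library was therefore added after the data had been seen, and its values are given beside the calls of members that it adds or removes. Under it the members' median log2 fold changes were 0.05, 0.21 and 0.27 in RA GFP+ versus RA GFP-, SAG GFP+ versus RA GFP+ and SAG GFP+ versus RA GFP-, against 0.09, 0.20 and 0.28 without it.

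**Figure D3:**
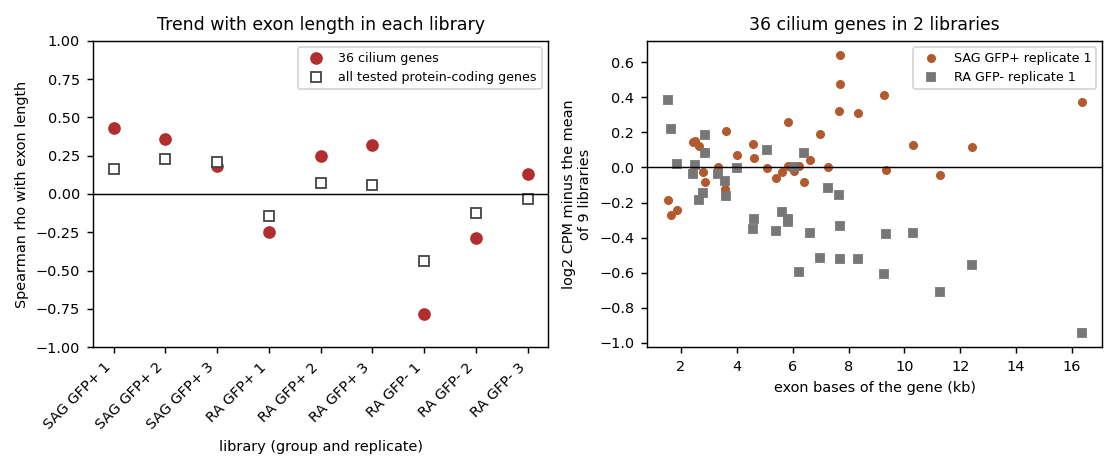
Left, Spearman's rho between exon length and the deviation of log2 CPM from the gene's 9-library mean, for the 36 genes and for 14258 protein-coding genes, in each library. Right, that deviation against exon length for the 36 genes in SAG GFP+ library 1 and RA GFP- library 1, where rho was 0.433 and -0.784.

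A gene was called where its adjusted p was under 0.05 (edgeR's quasi-likelihood test, Benjamini-Hochberg adjustment over 16772 genes). In RA GFP+ versus RA GFP- cells, which compares high with low FoxA2-Venus under the same agent, 4 of the 36 genes were called, all higher in RA GFP+: Ttc21b, Tulp3, Kif3b and Evc2. This is 11.1%, below the 16.9% called among all genes, the 4 called higher standing against 8.49% of all genes and none called lower against 8.43%. At an unadjusted p under 0.05, 5 members were higher and 1 lower by edgeR, and DESeq2 called 4 higher and 0 lower. The median log2 fold change was 0.09 over the members and -0.02 over all genes. The groups did not overlap for 6 members higher and 2 lower in RA GFP+, 22.2% in all against 36.4% of all genes (18.3% higher and 18.1% lower). The replicate numbers paired the RA libraries, and with the number as a block in those 6 libraries 6 members were called higher (Wdr19 and Sufu in addition) and 1 lower (Ift27). That fit called 32.2% of all its 16257 genes in either direction, so calls rose for all genes as well. Within same-numbered pairs, 14 members were higher in RA GFP+ in 3 of 3 pairs, 9 in 2, 9 in 1 and 4 in none. This count was not made over all genes, so it cannot show whether the members differ from other genes. The count of members called higher was 0 without RA GFP+ library 1 or RA GFP- library 2, 1 without RA GFP+ library 2, RA GFP+ library 3 or RA GFP- library 1, and 2 with the exon-length offset. Calls over all genes fell as well in these fits without 1 library, to 10.3% to 14.1% in either direction. With the offset 18.4% of all genes were called. With the offset and the replicate block together, 6 members were called higher and 2 lower, where 33.4% of all genes were called in either direction.

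In SAG GFP+ versus RA GFP+ cells, both FoxA2-Venus high but grown with different agents, 5 of 36 genes were called (13.9%, against 24.5% of all genes). Ttc21b, Ift74, Bbs1 and Arl3 rose in SAG GFP+ cells and Kif3b fell. Of all genes, 9.78% were called higher and 14.8% lower. The median log2 fold change was 0.20 over the members and -0.02 over all genes, and 28 of the 36 members had a fold change above 0. The groups did not overlap for 12 members higher and 3 lower, 41.7% against 42.9% of all genes (19.8% higher and 23.1% lower). No member was called without RA GFP+ library 1 or 2, fits that called 16.3% and 15.8% of all genes. Without SAG GFP+ library 2 or 3, 1 and 2 members were called higher and none lower, and without SAG GFP+ library 1, 7 higher and 2 lower. Of all genes, 16.3% and 17.8% were called without SAG GFP+ library 2 or 3, and 28.6% without SAG GFP+ library 1.

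In SAG GFP+ versus RA GFP- cells 9 of 36 genes were called (25%, against 28.5% of all genes). Ttc21b, Ift140, Wdr19, Tulp3, Ift81, Bbs7, Evc2 and Sufu rose in SAG GFP+ cells, and Ift20 fell. Of all genes, 12.0% were called higher and 16.5% lower. The median log2 fold change was 0.28 over the members and -0.01 over all genes, and 30 of 36 were above 0. The groups did not overlap for 15 members higher and 1 lower, 44.4% against 41.1% of all genes (19.0% higher and 22.1% lower). The count called higher was 3 without RA GFP- library 2 or SAG GFP+ library 2, 4 without RA GFP- library 1, RA GFP+ library 2 or SAG GFP+ library 3, 5 without RA GFP+ library 1, 10 without RA GFP- library 3, 11 without SAG GFP+ library 1 and 10 with the exon-length offset. Of all genes, the fits with 3 to 5 members higher called 19.4% to 26% in either direction. The last 3 fits called 27.7%, 33.8% and 29.4%. The count called lower was 0 without RA GFP- library 1 or SAG GFP+ library 2 or 3. Each pair of these 3 comparisons shares a group of libraries, so their values for a gene are not independent. In all, 13 members were called in at least 1 comparison, 9 of them in 1, Tulp3, Kif3b and Evc2 in 2 and Ttc21b in all 3, and 23 in none.

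**Figure D4:**
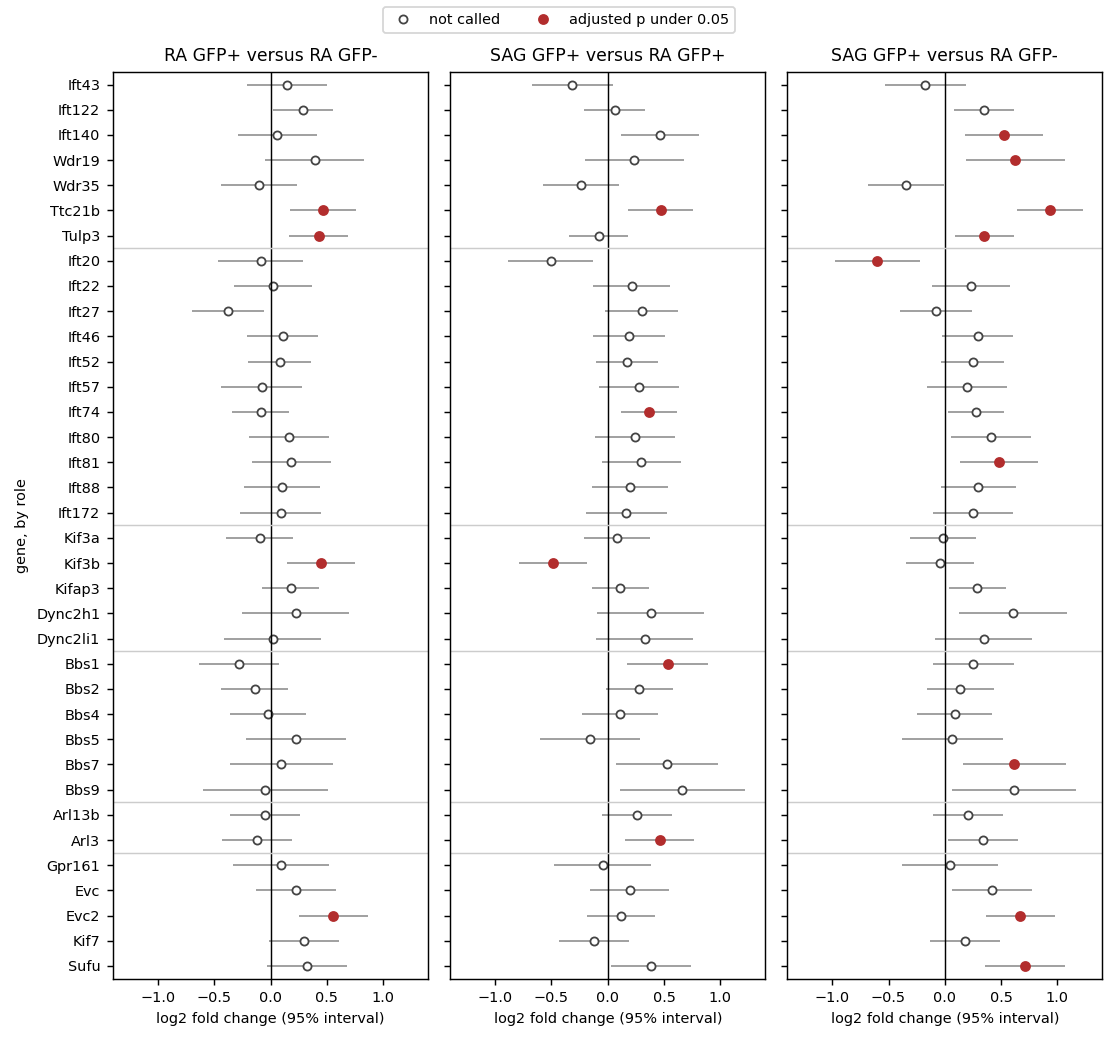
Log2 fold change of each of the 36 genes (rows, by role) with its 95% interval in RA GFP+ versus RA GFP-, SAG GFP+ versus RA GFP+ and SAG GFP+ versus RA GFP- cells; filled points have an adjusted p under 0.05. The points lie between -0.60 (Ift20) and 0.93 (Ttc21b), and 4, 5 and 9 genes are called.

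Among the IFT-A complex and its carriers, the called genes were 2 of 7 in RA GFP+ versus RA GFP-, 1 in SAG GFP+ versus RA GFP+ and 4 in SAG GFP+ versus RA GFP-, all higher. These are 28.6%, 14.3% and 57.1%, against 16.9%, 24.5% and 28.5% of all genes in either direction and 8.49%, 9.78% and 12.0% higher. The median log2 fold changes of the 7 genes were 0.29, 0.06 and 0.35. Ttc21b, on chromosome 2 (66184327 to 66256617, minus strand, GRCm38), encodes an IFT-A subunit needed for return transport, and mouse mutants in it are known for altered hedgehog signalling. It stood at 71.9, 69.5 and 83.2 CPM in SAG GFP+, 49.6, 56.1 and 56.5 CPM in RA GFP+ and 35.4, 37.8 and 44.5 CPM in RA GFP- libraries. All 3 groups were separate, with SAG GFP+ highest. Ttc21b rose 1.91-fold in SAG GFP+ versus RA GFP- cells (log2 fold change 0.93 ± 0.13 SE, adjusted p = 0.000393). The log2 fold change was 0.46 ± 0.13 in RA GFP+ versus RA GFP- (adjusted p = 0.0334) and 0.47 ± 0.13 in SAG GFP+ versus RA GFP+ (adjusted p = 0.0234). Over the 17 alternatives the call in SAG GFP+ versus RA GFP- held, with log2 fold changes of 0.74 to 1.03 and a highest adjusted p of 0.0028. In RA GFP+ versus RA GFP- the adjusted p was 0.0521 to 0.121 without any 1 of the RA GFP+ libraries or of RA GFP- libraries 1 and 2. It was 0.0583 with the exon-length offset and 0.0174 with the offset and the replicate block. For SAG GFP+ versus RA GFP+ it was 0.105 without RA GFP+ library 1, 0.0647 without RA GFP+ library 2 and 0.0831 without SAG GFP+ library 3.

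Tulp3, a carrier that binds IFT-A and brings membrane receptors into the cilium, was at 68.2, 69.8 and 82.0 CPM in SAG GFP+, 81.2, 75.3 and 75.8 CPM in RA GFP+ and 53.0, 58.8 and 61.0 CPM in RA GFP- libraries. The SAG GFP+ and RA GFP+ groups overlapped and both lay above RA GFP-. It rose in RA GFP+ versus RA GFP- (log2 fold change 0.43 ± 0.12, adjusted p = 0.0296) and in SAG GFP+ versus RA GFP- (0.35 ± 0.12, adjusted p = 0.0481), and had a log2 fold change of -0.08 in SAG GFP+ versus RA GFP+ (adjusted p = 0.671). Both calls were lost with the exon-length offset (log2 fold change 0.30, adjusted p = 0.0872, and 0.15, adjusted p = 0.333). With the offset and the replicate block the call in RA GFP+ versus RA GFP- held (0.30, adjusted p = 0.0182). The adjusted p of the call in RA GFP+ versus RA GFP- was also 0.0633 to 0.111 without any 1 of the RA GFP+ libraries or of RA GFP- libraries 1 and 2, and that of the call in SAG GFP+ versus RA GFP- 0.0509 to 0.153 without any 1 library other than SAG GFP+ library 1.

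Ift140 and Wdr19 encode core IFT-A subunits. Ift140 was at 81.0, 90.5 and 76.7 CPM in SAG GFP+, 54.8, 57.3 and 67.6 CPM in RA GFP+ and 45.4, 58.1 and 68.9 CPM in RA GFP- libraries. SAG GFP+ libraries were above all others, and the RA groups overlapped. Ift140 rose in SAG GFP+ versus RA GFP- (log2 fold change 0.53 ± 0.16, adjusted p = 0.0294), and was just short of the threshold in SAG GFP+ versus RA GFP+ (0.47 ± 0.16, adjusted p = 0.0526). There it was called in 11 of the 17 alternatives (adjusted p of 0.0186 to 0.0479, 0.026 with the exon-length offset and 0.0287 by DESeq2). Its call in SAG GFP+ versus RA GFP- was lost without RA GFP- library 1 (adjusted p = 0.0695), RA GFP- library 2 (0.0703) or SAG GFP+ library 2 (0.0918). That call was also lost with only the 6 libraries compared (0.0523) and with the exon-length offset and replicate block together (0.0621). Wdr19 had 31.0, 43.1 and 44.4 CPM in SAG GFP+, 30.7, 33.2 and 36.8 CPM in RA GFP+ and 19.6, 24.7 and 32.6 CPM in RA GFP- libraries. Its highest RA GFP- library lay above its lowest SAG GFP+ library. Wdr19 was called higher in SAG GFP+ versus RA GFP- (0.63 ± 0.20, adjusted p = 0.0376), a call with an adjusted p of 0.0817 under the exon-length offset and 0.0558 to 0.113 without RA GFP- library 1 or 2, RA GFP+ library 2 or SAG GFP+ library 2 or 3. Of the members of this role called in no comparison, Ift122, also a core subunit, had 42.1, 42.2 and 42.7 CPM in SAG GFP+, 38.5, 42.0 and 41.2 CPM in RA GFP+ and 29.7, 34.6 and 35.4 CPM in RA GFP- libraries. It missed the threshold in SAG GFP+ versus RA GFP- (log2 fold change 0.35, adjusted p = 0.0527; by DESeq2 0.0204, with the exon-length offset 0.12, adjusted p = 0.401). Wdr35 and Ift43 had log2 fold changes of -0.34 and -0.17 in that comparison (adjusted p = 0.119 and 0.464). With the exon-length offset Wdr35 was called lower (-0.44, adjusted p = 0.0229) and Ift43 stood at 0.08 (adjusted p = 0.717).

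Of the 11 IFT-B genes, none was called in RA GFP+ versus RA GFP-, Ift74 was called higher in SAG GFP+ versus RA GFP+, and Ift81 was called higher and Ift20 lower in SAG GFP+ versus RA GFP-. These are 0%, 9.09% and 18.2%, against 16.9%, 24.5% and 28.5% of all genes. In RA GFP+ versus RA GFP-, 1 IFT-B gene was lower and 0 higher at an unadjusted p under 0.05 by edgeR, and DESeq2 called 0. Median log2 fold changes were 0.08, 0.21 and 0.25. Ift74 and Ift81 encode partners in the tubulin-binding module of IFT-B. Ift74 was at 80.3, 86.5 and 90 CPM in SAG GFP+, 68.1, 64.0 and 67.0 CPM in RA GFP+ and 64.9, 78.0 and 69.1 CPM in RA GFP- libraries, and Ift81 at 46.6, 58.4 and 62.4 CPM in SAG GFP+, 41.5, 41.8 and 52.9 CPM in RA GFP+ and 37.3, 36.7 and 46.0 CPM in RA GFP- libraries. For Ift74 the SAG GFP+ libraries were above every other library, whereas for Ift81 they overlapped RA GFP+. The log2 fold change of Ift74 in SAG GFP+ versus RA GFP+ was 0.37 ± 0.11 (adjusted p = 0.0361; 0.0837 to 0.139 without any 1 of the RA GFP+ libraries or SAG GFP+ library 2 or 3). Ift74 was at 0.28 in SAG GFP+ versus RA GFP- (adjusted p = 0.0919), and was called there with the exon-length offset (0.44, adjusted p = 0.0191). For Ift81 in SAG GFP+ versus RA GFP- it was 0.48 ± 0.16 (adjusted p = 0.0428; 0.0537 to 0.136 without RA GFP- library 1 or 2, RA GFP+ library 1 or 2, or SAG GFP+ library 2 or 3).

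Ift20, a small IFT-B subunit that is also found at the Golgi, went the other way, with 14.9, 10.9 and 13.7 CPM in SAG GFP+, 19.9, 19.5 and 16.8 CPM in RA GFP+ and 22.1, 19.2 and 18.4 CPM in RA GFP- libraries. Every SAG GFP+ library was below every RA library. Ift20 fell in SAG GFP+ versus RA GFP- (log2 fold change -0.60 ± 0.17, adjusted p = 0.0242) and missed the threshold in SAG GFP+ versus RA GFP+ (-0.51 ± 0.17, adjusted p = 0.0526). With 1525 exon bases it is the shortest of the 36 genes, and with the exon-length offset its log2 fold change in SAG GFP+ versus RA GFP- was -0.35 (adjusted p = 0.124). The call was also lost without RA GFP- library 1 (adjusted p = 0.0904), SAG GFP+ library 2 (0.12) or SAG GFP+ library 3 (0.0543). Ift27, a small GTPase that helps BBSome cargo leave the cilium, had 25.3, 26.5 and 23.5 CPM in SAG GFP+, 19.8, 18 and 23.4 CPM in RA GFP+ and 27.1, 27.1 and 25.4 CPM in RA GFP- libraries. It was lowest in RA GFP+ with no overlap, but passed the threshold in RA GFP+ versus RA GFP- only with the replicate block (log2 fold change -0.39, adjusted p = 0.0465; without the block -0.38 ± 0.15, adjusted p = 0.105). The other 7 genes, Ift22, Ift46, Ift52, Ift57, Ift80, Ift88 and Ift172, were called in no comparison. With the exon-length offset Ift52 was called higher in SAG GFP+ versus RA GFP- (0.40, adjusted p = 0.0351; 0.25, adjusted p = 0.167, without it). Ift88, mutated in mice with lost or shortened cilia, had 30.5, 39.5 and 29.1 CPM in SAG GFP+, 29.6, 29.1 and 27.8 CPM in RA GFP+ and 23.9, 27.7 and 29.0 CPM in RA GFP- libraries.

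Among the motors, Kif3b was the called gene, and it stood apart in RA GFP+ cells. It encodes a motor subunit of kinesin-II, with Kif3a as its partner and Kifap3 as the accessory subunit. Kif3b was at 50.5, 46.5 and 39.8 CPM in SAG GFP+, 66.8, 69.6 and 55.7 CPM in RA GFP+ and 43.1, 48.5 and 49.1 CPM in RA GFP- libraries. RA GFP+ libraries were above all 6 others, which overlapped among themselves. Its log2 fold change was 0.45 ± 0.14 in RA GFP+ versus RA GFP- (adjusted p = 0.0447), -0.49 ± 0.14 in SAG GFP+ versus RA GFP+ (adjusted p = 0.023) and -0.04 ± 0.14 in SAG GFP+ versus RA GFP- (adjusted p = 0.852). The first 2 of these rest on the same 3 RA GFP+ libraries. In RA GFP+ versus RA GFP- the adjusted p was 0.0629 to 0.184 without any 1 of the RA GFP- libraries, RA GFP+ library 1 or 2, or SAG GFP+ library 2, and in SAG GFP+ versus RA GFP+ 0.0724 to 0.106 without RA GFP+ library 1 or 2 or SAG GFP+ library 2 or 3.

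The partners of Kif3b were called in no comparison. Kif3a had 47.5, 56.7 and 54.2 CPM in SAG GFP+, 45.3, 51.7 and 52.6 CPM in RA GFP+ and 49.2, 49.8 and 61.3 CPM in RA GFP- libraries, with overlap throughout. Kifap3 had 101, 112 and 103 CPM in SAG GFP+, 100, 96.9 and 95.5 CPM in RA GFP+ and 95.5, 87.5 and 76.0 CPM in RA GFP- libraries. Its log2 fold change in SAG GFP+ versus RA GFP- was 0.29 (adjusted p = 0.085), a difference that was called with the exon-length offset (0.35, adjusted p = 0.0285). The difference in fold change between Kif3b and its partners was not tested. Dync2h1, the heavy chain of the return motor and with 16348 exon bases the longest of the 36 genes, was at 84.4, 89.0 and 76.3 CPM in SAG GFP+, 54.8, 67.4 and 69.6 CPM in RA GFP+ and 33.8, 63.8 and 66.8 CPM in RA GFP- libraries. SAG GFP+ libraries were above all others, and RA GFP- library 1 lay far below its own group. Its log2 fold change in SAG GFP+ versus RA GFP- was 0.60 ± 0.22 (adjusted p = 0.0591). It was called in 5 of the 17 alternatives, among them DESeq2 (adjusted p = 0.0323) and the fit without RA GFP- library 3 (0.0338). The exon-length offset brought it to 0.29 (adjusted p = 0.134). Dync2li1, its light intermediate chain, ranged from 18.7 to 33.2 CPM and was not called.

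The BBSome genes had median log2 fold changes of -0.04, 0.40 and 0.19 in the 3 comparisons, and 5 of the 6 were above 0 in SAG GFP+ versus RA GFP+, but Bbs1 alone was called there and Bbs7 alone in SAG GFP+ versus RA GFP-. The called share was 16.7% in each of these 2, against 24.5% and 28.5% of all genes. Bbs1, which encodes a subunit that binds cargo and the recruiting GTPase, was at 29.7, 32.2 and 24.0 CPM in SAG GFP+, 17.5, 20.3 and 21.6 CPM in RA GFP+ and 21.3, 24.8 and 26.0 CPM in RA GFP- libraries. SAG GFP+ did not overlap RA GFP+ and did overlap RA GFP-. Its log2 fold change in SAG GFP+ versus RA GFP+ was 0.53 ± 0.16 (adjusted p = 0.0341; 0.0505 to 0.139 without RA GFP- library 2, RA GFP+ library 1 or 2, or SAG GFP+ library 2). Bbs7, another core subunit, had 15.2, 21.5 and 25.8 CPM in SAG GFP+, 15.1, 12.9 and 15.6 CPM in RA GFP+ and 12.4, 13.1 and 15.4 CPM in RA GFP- libraries. SAG GFP+ library 1 lay within the RA range while libraries 2 and 3 were above it. Bbs7 was called higher in SAG GFP+ versus RA GFP- (log2 fold change 0.62 ± 0.21, adjusted p = 0.0449), and this adjusted p was 0.0558 to 0.171 without any 1 library other than RA GFP- library 3 or SAG GFP+ library 1. Bbs9 had 16.7, 22.9 and 28.6 CPM in SAG GFP+, 12.8, 14.3 and 15.9 CPM in RA GFP+ and 11.0, 13.4 and 20.2 CPM in RA GFP- libraries. Its SAG GFP+ libraries were all above RA GFP+ and overlapped RA GFP-. Bbs9 was not called (SAG GFP+ versus RA GFP+ 0.66 ± 0.25, adjusted p = 0.0783; 0.0568 with the exon-length offset). Alternatives that called it there included DESeq2 (adjusted p = 0.0414) and the replicate block in the 6 libraries compared (0.0245). With that block it was also called in SAG GFP+ versus RA GFP- (0.0262). Bbs2, Bbs4 and Bbs5 were called in no comparison, and Bbs5 held the lowest value of the 36 genes, 7.08 CPM.

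Arl3, a GTPase that releases lipid-modified cargo inside the cilium, had 59.0, 60.3 and 73.1 CPM in SAG GFP+, 42.9, 43.6 and 53.3 CPM in RA GFP+ and 53.6, 45.8 and 52.7 CPM in RA GFP- libraries. The SAG GFP+ libraries were above all 6 others. Arl3 rose in SAG GFP+ versus RA GFP+ (log2 fold change 0.46 ± 0.14, adjusted p = 0.0325; 0.0584 to 0.131 without RA GFP+ library 1 or 2 or SAG GFP+ library 2 or 3) and had a log2 fold change of 0.34 in SAG GFP+ versus RA GFP- (adjusted p = 0.0919). Against RA GFP- it was called with the exon-length offset (0.52, adjusted p = 0.019). Arl13b, the exchange factor that activates Arl3 and a standard marker of the ciliary membrane, had 31.7, 39.7 and 34.8 CPM in SAG GFP+, 28.5, 30 and 30.3 CPM in RA GFP+ and 33.9, 27.2 and 30.9 CPM in RA GFP- libraries. It was not called (SAG GFP+ versus RA GFP+ 0.26 ± 0.14, adjusted p = 0.212).

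Of the 5 ciliary hedgehog regulators, Evc2 rose in RA GFP+ versus RA GFP-, none was called in SAG GFP+ versus RA GFP+, and Evc2 and Sufu rose in SAG GFP+ versus RA GFP-. The called shares of the 5 regulators were 20%, 0% and 40%, against 16.9%, 24.5% and 28.5% of all genes. In SAG GFP+ versus RA GFP+, 1 was higher at an unadjusted p under 0.05 by edgeR, and DESeq2 called 0. Median log2 fold changes were 0.30, 0.12 and 0.42. Evc2 and Evc encode partners at the base of the cilium that pass the signal of active Smoothened on, and their genes are neighbours on chromosome 5, Evc at 37289098 to 37336894 on the minus strand and Evc2 at 37338499 to 37425055 on the plus strand (GRCm38). Evc2 was at 30.6, 32.0 and 29.4 CPM in SAG GFP+, 29.9, 25.4 and 29.7 CPM in RA GFP+ and 20.8, 17.6 and 19.3 CPM in RA GFP- libraries. The GFP+ groups overlapped and every GFP+ library was above every RA GFP- library. Its log2 fold change was 0.67 ± 0.14 in SAG GFP+ versus RA GFP- (1.59-fold, adjusted p = 0.00421) and 0.56 ± 0.14 in RA GFP+ versus RA GFP- (1.47-fold, adjusted p = 0.0176), and 0.12 ± 0.14 in SAG GFP+ versus RA GFP+ (adjusted p = 0.586). The call in SAG GFP+ versus RA GFP- held in all 17 alternatives (0.61 to 0.75, highest adjusted p = 0.0208). That in RA GFP+ versus RA GFP- held with the exon-length offset and was lost without RA GFP- library 2 (adjusted p = 0.0694), RA GFP+ library 1 (0.0745) or RA GFP+ library 3 (0.0592). Evc had 40.9, 32.0 and 29.4 CPM in SAG GFP+, 32.6, 28.9 and 27.9 CPM in RA GFP+ and 23.4, 24.4 and 28.9 CPM in RA GFP- libraries. It was not called, with a log2 fold change of 0.42 ± 0.16 in SAG GFP+ versus RA GFP- (adjusted p = 0.0756).

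Sufu, which binds Gli transcription factors and restrains them, was at 165, 137 and 110 CPM in SAG GFP+, 101, 117 and 98.2 CPM in RA GFP+ and 73.7, 98.3 and 79.9 CPM in RA GFP- libraries. SAG GFP+ lay above RA GFP- without overlap, and RA GFP+ overlapped both. Sufu rose 1.64-fold in SAG GFP+ versus RA GFP- (log2 fold change 0.71 ± 0.16, adjusted p = 0.00723), a call that held in all 17 alternatives (0.57 to 0.86, highest adjusted p = 0.0237). The log2 fold change was 0.32 ± 0.16 in RA GFP+ versus RA GFP- (adjusted p = 0.213; 0.0197 with the replicate block) and 0.39 ± 0.16 in SAG GFP+ versus RA GFP+ (adjusted p = 0.106; 0.036 without SAG GFP+ library 3). Gpr161, a receptor that holds the pathway off and leaves the cilium on activation, had 40.4, 34.9 and 32.1 CPM in SAG GFP+, 31.9, 39.5 and 39.5 CPM in RA GFP+ and 24.7, 43.2 and 36.2 CPM in RA GFP- libraries. All groups overlapped, and its log2 fold changes of 0.09, -0.05 and 0.05 had 95% intervals within -0.48 and 0.52. Kif7, a kinesin of the ciliary tip compartment, had 39.8, 38.4 and 32.2 CPM in SAG GFP+, 37.6, 39.7 and 42.6 CPM in RA GFP+ and 28.3, 33.3 and 35.9 CPM in RA GFP- libraries, and was not called. For Kif7, 20.3% of the exon bases overlap genes on the opposite strand that hold 28613 counts against its own 8815, and the strand setting of the counting is not given in the sources used here, so its values are uncertain.

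**Figure D5:**
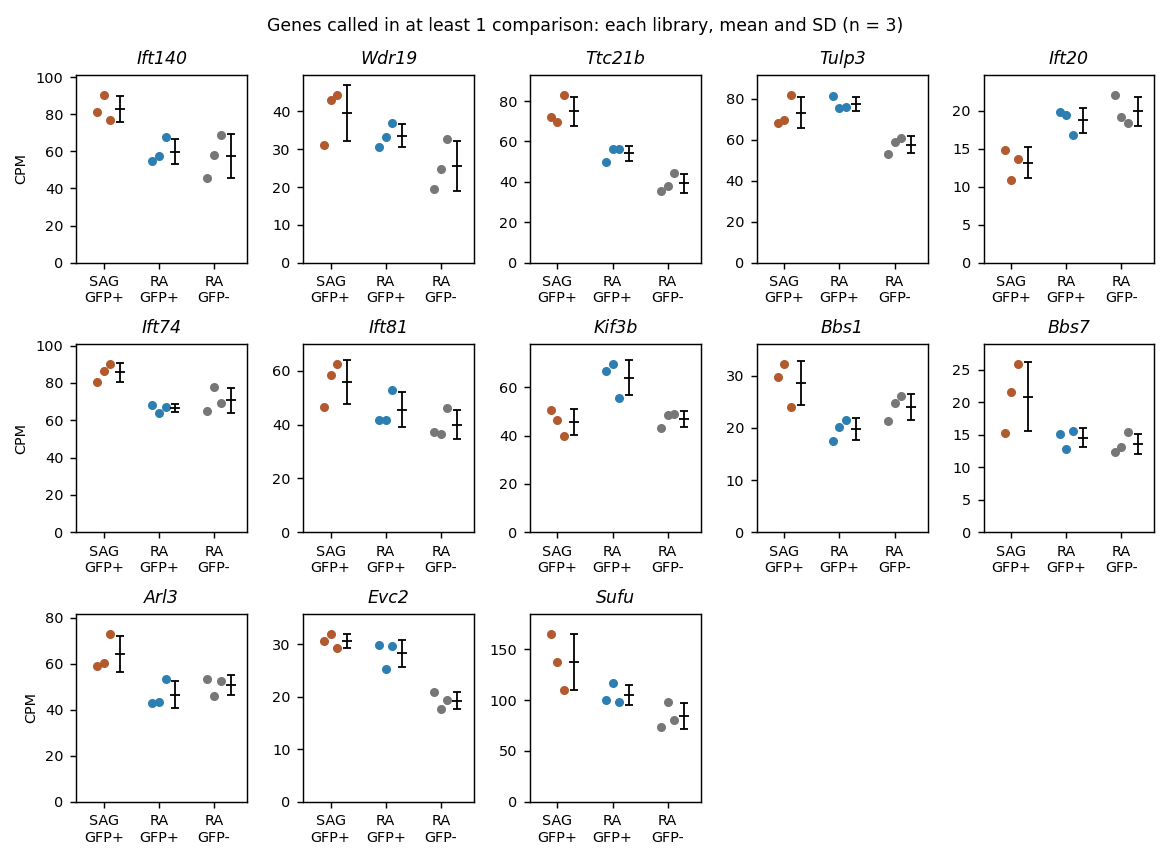
CPM in each library, with the mean and SD of 3 libraries, of the 13 genes called in at least 1 comparison, in SAG GFP+, RA GFP+ and RA GFP- cells. Ttc21b has 3 separate groups, Kif3b is highest in RA GFP+ libraries (55.7 to 69.6 CPM), Evc2 and Tulp3 are lowest in RA GFP- libraries, and Ift20 is lowest in SAG GFP+ libraries (10.9 to 14.9 CPM).

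Of 20 hedgehog transducers, 5 were called higher and 2 lower in RA GFP+ versus RA GFP-, 3 higher and 5 lower in SAG GFP+ versus RA GFP+, and 6 higher and 4 lower in SAG GFP+ versus RA GFP-. These are 35%, 40% and 50%, against 16.9%, 24.5% and 28.5% of all genes. Ptch1 rose in each of these comparisons, with log2 fold changes of 2.06 ± 0.15 (adjusted p = 1.23e-05), 0.55 ± 0.15 (adjusted p = 0.0187) and 2.61 ± 0.16 (adjusted p = 8.99e-07). Gli1, a transcription factor and target of the pathway, stood at 190, 139 and 123 CPM in SAG GFP+, 170, 152 and 114 CPM in RA GFP+ and 66.1, 55.9 and 64.4 CPM in RA GFP- libraries, a log2 fold change of 1.22 ± 0.19 in RA GFP+ versus RA GFP- (adjusted p = 0.00104) and 0.06 ± 0.18 in SAG GFP+ versus RA GFP+ (adjusted p = 0.859). Cdon, a hedgehog co-receptor, fell in SAG GFP+ versus RA GFP+ (-2.03 ± 0.23, adjusted p = 0.000104), at 35.1, 31.8 and 32.9 CPM in SAG GFP+ against 95.1, 138 and 174 CPM in RA GFP+ libraries.

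Other cilium genes that are no members gave the following counts. Of 20 further IFT, motor and BBSome genes none was called by edgeR in RA GFP+ versus RA GFP- (1 higher and 3 lower at an unadjusted p under 0.05), 5 were called higher and 1 lower in SAG GFP+ versus RA GFP+, and 2 higher and 1 lower in SAG GFP+ versus RA GFP-. Ttc26, an IFT-B subunit, had the smallest p of the list in SAG GFP+ versus RA GFP+ (log2 fold change 0.66 ± 0.15, adjusted p = 0.00733). The smallest in RA GFP+ versus RA GFP- was that of Kif17, a kinesin, which was at 0.235 to 2.02 CPM and was not called (adjusted p = 0.122). Of 19 transition zone genes, which build the gate at the base of the cilium, 0, 4 and 4 were called higher by edgeR in the 3 comparisons and none lower, against 0, 5 and 6 higher and 1, 0 and 1 lower at an unadjusted p under 0.05. Ahi1 among them was at 62.8, 84.1 and 92.1 CPM in SAG GFP+ and 35.8, 40.7 and 48.3 CPM in RA GFP+ libraries (log2 fold change 0.94 ± 0.16, adjusted p = 0.00168). Tmem231, with the smallest p of that list in RA GFP+ versus RA GFP-, had a log2 fold change of -0.59 ± 0.20 there (adjusted p = 0.0645). Of 19 basal body genes 0, 2 and 4 were called higher and none lower, against 2, 8 and 6 higher and 1, 0 and 0 lower at an unadjusted p under 0.05. Cep83, a distal appendage gene, rose in SAG GFP+ versus RA GFP+ (0.45 ± 0.12, adjusted p = 0.0192). Cep97, whose product restrains cilium assembly, had a log2 fold change of 0.47 ± 0.16 in RA GFP+ versus RA GFP- (adjusted p = 0.0674). Of 15 genes of ciliary membrane trafficking, 2, 0 and 2 were called higher and 0, 3 and 2 lower. Rab3ip, an exchange factor for Rab8 in the first steps of cilium assembly, was, like Kif3b, highest in RA GFP+ libraries, with 48.5, 47.4 and 49.3 CPM in SAG GFP+, 93.1, 98.3 and 74.3 CPM in RA GFP+ and 63.4, 54.7 and 60.4 CPM in RA GFP- libraries. It rose in RA GFP+ versus RA GFP- (0.57 ± 0.13, adjusted p = 0.0105) and fell in SAG GFP+ versus RA GFP+ (-0.87 ± 0.13, adjusted p = 0.000597), 2 comparisons that share the RA GFP+ libraries.

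Of 8 genes of cilium disassembly, 0, 0 and 1 were called higher and 0, 1 and 2 lower. Hdac6, a tubulin deacetylase, fell in SAG GFP+ versus RA GFP+ (-1.09 ± 0.15, adjusted p = 0.000284), at 115, 106 and 86.0 CPM in SAG GFP+ against 250, 222 and 182 CPM in RA GFP+ libraries. Kif19a, with the smallest p of the list in RA GFP+ versus RA GFP-, was not called there (-0.84 ± 0.38, adjusted p = 0.161). Of 17 genes of motile cilia that passed the filter, 1, 2 and 0 were called higher and 4, 2 and 4 lower. The summed level of all 22 genes of that list, including those that did not pass, was 83.7 to 99.7 CPM in SAG GFP+ libraries. It was 71.7 to 80.6 CPM in RA GFP+ and 89.4 to 106 CPM in RA GFP- libraries. Rsph4a, a radial spoke gene, fell in RA GFP+ versus RA GFP- (-3.36 ± 0.71, adjusted p = 0.00722), at 0.196, 0.235 and 0.0349 CPM in RA GFP+ against 2.51, 1.87 and 0.533 CPM in RA GFP- libraries. Tppp3, a tubulin-binding protein, rose in SAG GFP+ versus RA GFP+ (1.10 ± 0.24, adjusted p = 0.00575), at 14.9, 22.9 and 20.8 CPM in SAG GFP+ against 6.47, 9.51 and 11.3 CPM in RA GFP+ libraries. Over the 127 further cilium and hedgehog genes together, 8 were called higher and 9 lower (13.4%) in RA GFP+ versus RA GFP-, 19 and 12 (24.4%) in SAG GFP+ versus RA GFP+, and 21 and 14 (27.6%) in SAG GFP+ versus RA GFP-, shares close to the 16.9%, 24.5% and 28.5% of all genes.

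RFX transcription factors bind a motif named the X-box in promoters of many cilium genes, and FOXJ1 drives motile cilia. Of 9 such factors, 0, 3 and 2 were called higher and 3, 0 and 1 lower in the 3 comparisons. This is 33.3% in each, or 3 genes, against 16.9%, 24.5% and 28.5% of all genes. Rfx3 was at 111, 148 and 141 CPM in SAG GFP+, 60.1, 75.4 and 82.8 CPM in RA GFP+ and 42.4, 64.8 and 73.4 CPM in RA GFP- libraries, with SAG GFP+ above both RA groups. It rose in SAG GFP+ versus RA GFP+ (log2 fold change 0.87 ± 0.20, adjusted p = 0.00873) and in SAG GFP+ versus RA GFP- (1.14 ± 0.20, adjusted p = 0.00156), and had a log2 fold change of 0.27 in RA GFP+ versus RA GFP- (adjusted p = 0.409). Rfx2 was higher in RA GFP- cells, with 15.6, 18.2 and 17.2 CPM in SAG GFP+, 10.7, 14.5 and 21.1 CPM in RA GFP+ and 30.3, 33.1 and 46.6 CPM in RA GFP- libraries (RA GFP+ versus RA GFP- -1.25 ± 0.24, adjusted p = 0.00476). Foxj1 was at 1.14 to 3.14 CPM in all libraries and was not called. Gmnc, a regulator of multiciliated cell fate, had 83 counts over the SAG GFP+ libraries, 0 over the RA GFP+ libraries and 25 over the RA GFP- libraries. Against a floor of 3 counts over the RA GFP+ group, its SAG GFP+ mean of 1.09 CPM was 30.5-fold higher. This ratio depends on the floor chosen and leaves out the spread between libraries.

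Promoters of the members, 250 bases before to 50 bases after the gene start in RefSeq's annotation of GRCm38.p6, were found for 32 of the 36 genes (not for Ift122, Ift80, Ift81 and Dync2li1) and searched on both strands. The 6-letter RFX core GTTGCC occurred in the promoters of 13 of the 32 genes (40.6%), against 14.1% of all 27025 genes with a promoter in the table. These were Bbs1, Bbs5, Bbs7, Ift140, Wdr35, Ift172, Ift27, Ift57, Ift88, Arl13b, Evc, Dync2h1 and Kif3a. A full X-box, searched as GTTNCC followed after 0 to 3 bases by GGNAAC, which reads the same on both strands and can contain the core, occurred in Bbs7 and Ift57 (6.25% of the 32 genes, against 0.936% of all genes). A match describes the letters and is no evidence of binding. Among the members called in at least 1 comparison, those with the core are Ift140, Bbs1 and Bbs7.

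The promoters that hold the X-box are shown first, with the X-box in capitals, then that of Bbs1, a called gene with the core alone, in capitals, and that of Ttc21b, the member with the largest change, in which neither motif was found and no base is in capitals. The X-box of Bbs7 lies 121 to 108 bases before the gene start with 2 bases between its arms, that of Ift57 60 to 48 bases before it with 1 base between them. Each is given 5′ to 3′ on the strand of its gene: Bbs7 at chr3:36613340-36613639 (minus strand), Ift57 at chr16:49699044-49699343 (plus), Bbs1 at chr19:4906578-4906877 (minus) and Ttc21b at chr2:66256568-66256867 (minus).
Bbs7: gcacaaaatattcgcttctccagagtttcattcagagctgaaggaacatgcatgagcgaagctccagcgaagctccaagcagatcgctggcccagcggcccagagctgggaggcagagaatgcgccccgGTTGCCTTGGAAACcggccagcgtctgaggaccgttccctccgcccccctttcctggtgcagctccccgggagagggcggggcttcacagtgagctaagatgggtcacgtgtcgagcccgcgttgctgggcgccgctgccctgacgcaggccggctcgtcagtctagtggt
Ift57: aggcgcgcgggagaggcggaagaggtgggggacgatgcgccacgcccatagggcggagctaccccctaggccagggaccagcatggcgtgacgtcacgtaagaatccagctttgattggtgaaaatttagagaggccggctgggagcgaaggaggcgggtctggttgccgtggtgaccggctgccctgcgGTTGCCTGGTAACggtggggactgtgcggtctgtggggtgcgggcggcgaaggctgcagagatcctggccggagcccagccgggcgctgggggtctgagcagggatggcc
Bbs1: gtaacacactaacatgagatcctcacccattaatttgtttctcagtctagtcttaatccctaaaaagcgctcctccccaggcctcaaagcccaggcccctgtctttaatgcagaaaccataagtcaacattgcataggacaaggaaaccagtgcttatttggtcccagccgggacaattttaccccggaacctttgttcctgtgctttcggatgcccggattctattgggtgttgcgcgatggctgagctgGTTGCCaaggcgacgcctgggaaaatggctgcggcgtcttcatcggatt
Ttc21b: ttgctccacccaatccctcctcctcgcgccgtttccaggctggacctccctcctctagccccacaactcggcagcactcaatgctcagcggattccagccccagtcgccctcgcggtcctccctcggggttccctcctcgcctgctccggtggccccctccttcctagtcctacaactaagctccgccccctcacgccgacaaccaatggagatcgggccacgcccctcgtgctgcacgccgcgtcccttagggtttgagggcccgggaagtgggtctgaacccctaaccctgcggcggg

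Of the genes with an X-box, Bbs7 was called higher in SAG GFP+ versus RA GFP-, and Ift57 was at 26.7, 30.2 and 38.2 CPM in SAG GFP+, 27.8, 23.2 and 27.6 CPM in RA GFP+ and 30, 25.8 and 27.4 CPM in RA GFP- libraries and was called in none. Ttc21b, Evc2 and Sufu, whose calls in SAG GFP+ versus RA GFP- held in every alternative, have neither motif in the window searched.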

How the data were processed

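The authors' deposited table holds counts per gene for 9 libraries, with Ensembl gene IDs. Per the submitters' processing notes, the build was GRCm38 and the tools included featureCounts (Subread 1.6.2), Bowtie2 2.3.4.1 and Trim Galore 0.5.0. For the annotation, the strand setting and reads with several matches, the sources used here give nothing. Per the labels, poly(A) RNA was selected and a directional kit used. IDs were matched to symbols, coordinates and exon lengths with GENCODE M21.

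All 9 libraries were fitted in 1 model with R 4.3.3 and edgeR 4.0.16 (TMM normalization, a minimum count of 10, quasi-likelihood test), and p-values were adjusted over 16772 genes by Benjamini-Hochberg. CPM are counts per 1e+06 of each library's TMM-scaled total over tested genes, and the normalization factors were 0.972 to 1.029. Intervals are 95% intervals of the fit. The model has no block for the replicate number. The correlations of same-numbered RA GFP+ and RA GFP- libraries were 0.273, 0.307 and 0.347, so the numbers pair the RA libraries. The code was tested on simulated counts in which 200 genes, drawn from all 16772, were changed. Changes of 0.5 on the log2 scale were called in 0%, 4.92% and 3.57% of cases. The order is RA GFP+ versus RA GFP-, SAG GFP+ versus RA GFP+ and SAG GFP+ versus RA GFP-. Changes of 1 were called in 36.6%, 46.6% and 49.3%. These rates cannot be carried over to the members, because few genes were changed and they came from all levels of expression. In the data 2838, 4117 and 4787 genes were called in the 3 comparisons. The members' median standard error in RA GFP+ versus RA GFP- was 0.155, against 0.224 over all genes. How often changes of these sizes would be called among the members was not tested. A gene that is not called may still differ by amounts like those of the members.

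All members were accounted for by role. Values in every library are given for each member called in at least 1 comparison and for the member with the smallest p of a role. Some uncalled members were added after their values were seen. For each other list, the called gene with the smallest p in the first 2 comparisons was taken, or the gene with the smallest p where none was called. Ptch1 and Gli1 were taken as readouts of the pathway. Rfx3 and Foxj1 were added after their values were seen. The members and lists were chosen with earlier results of these data known. Alternatives were other size factors, no count filter, DESeq2 1.42.0, a replicate block, only the libraries compared, each library left out, and an exon-length offset added after the data had been seen.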

Additional observations from a re-analysis of the deposited data

How the results depend on the processing

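Of 1836 values of the 36 genes over 17 alternatives per comparison, 93 calls were lost and 65 gained, and no called value changed sign. Uncalled values changed sign in 43 cases, at a size of at most 0.235. The calls of Ttc21b, Evc2 and Sufu in SAG GFP+ versus RA GFP- held in all 17 alternatives, and every other call was lost in at least 3 of them. The cause was not tested, except that fewer libraries were fitted where 1 was left out. Each of the 36 genes has at least 2093 counts over the 9 libraries.

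Leaving out 1 library at a time gave 0 to 4 members higher and 0 lower in RA GFP+ versus RA GFP-, 0 to 7 higher and 0 to 2 lower in SAG GFP+ versus RA GFP+, and 3 to 11 higher and 0 to 1 lower in SAG GFP+ versus RA GFP-. Over all genes it gave 893 to 1684 higher and 890 to 1684 lower, 954 to 2092 higher and 1712 to 2880 lower, and 1351 to 2581 higher and 2014 to 3295 lower in the same order. In RA GFP+ versus RA GFP-, the replicate block in the 6 libraries gave 6 members higher and 1 lower, and 2615 genes higher and 2625 lower. The exon-length offset gave 2 members higher there, and with the block 6 members higher and 2 lower, 2550 genes higher and 2872 lower. In SAG GFP+ versus RA GFP+, the replicate block gave 7 members higher in the 6 libraries and 2 lower in all 9, and DESeq2 gave 2 lower. These fits called 28.8%, 32% and 29.1% of all genes in either direction. In SAG GFP+ versus RA GFP-, the replicate block in all 9 libraries gave 14 members higher, the 6 libraries alone 3 higher and 0 lower, and no low-count filter 0 lower. Of all genes, these fits called 36.8%, 23.5% and 18.9% in either direction. Same-numbered libraries of SAG GFP+ had correlations of 0.111, -0.0816 and 0.182 with RA GFP+ and 0.175, -0.0218 and 0.242 with RA GFP-, so a block there rests on a shared number only.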
